A study of Mus musculus with 6 samples.

Results

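The genes of serine, threonine and one-carbon metabolism were followed in mouse embryonic stem cells at 24 h and 48 h of FGF2. The set holds 31 genes, chosen by symbol for their place in threonine use, serine synthesis, the folate and methionine cycles, transsulfuration, proline and asparagine synthesis, and the response led by the transcription factor ATF4. All 31 symbols matched 1 row each of the deposited table of 51912 Ensembl genes, and all 31 passed the filter on low counts. The cells were of the R1 line, an established mouse embryonic stem cell line. They were held in 2iLIF, a medium with inhibitors of MEK and GSK3 and the cytokine LIF that keeps the naive state of pluripotency, and were then moved to the serum-free medium N2B27 with FGF2 at 100 ng/ml for 24 h or 48 h. Each time had 3 libraries of messenger RNA. Cells kept in 2iLIF, or moved to N2B27 without FGF2, were not analysed here, so the growth factor, the change of medium and time in culture cannot be told apart.

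One-carbon metabolism moves single carbon units on the cofactor folate to the synthesis of purines, thymidylate and methionine. Serine and glycine are its usual donors. Mouse embryonic stem cells are known for a further route, in which the mitochondrial enzyme threonine dehydrogenase (Tdh) oxidises threonine, the partner enzyme encoded by Gcat splits the product into glycine and acetyl-CoA, and the glycine cleavage system hands the carbon of glycine to folate. Methionine, once activated to S-adenosylmethionine, gives the methyl groups for DNA and histone methylation.

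The libraries held between 19574969 and 23133148 estimated counts. Levels are given as CPM, the count of a gene scaled to a common library total, with the SD over the 3 libraries after ±. Log2 fold changes are 48 h over 24 h, with their standard error after ±. Of 6 markers of primitive endoderm, a cell type that stem cell cultures can contain, 5 were under 1 CPM in every library, and the summed level of the list was 6.46 to 8.3 CPM at 24 h and 3.43 to 3.82 CPM at 48 h. Of 6 fibroblast markers, 4 were under 1 CPM in every library, Lum and Postn were at 0, and the summed level was 2.54 to 3.35 CPM at 24 h and 1.47 to 2.39 CPM at 48 h. All 5 stem cell markers read were present at both times, and 4 fell and 1 rose. Nanog fell from 694.7 ± 24.6 to 174.4 ± 6.47 CPM, a log2 change of -1.99. On the log2 scale Zfp42 was at -1.06 and Sox2 at -0.37, Pou5f1 fell from 1111 ± 1.99 to 1058 ± 15.2 CPM (-0.07), and Utf1 rose by 0.60. The summed level of these markers was 3410 to 3486 CPM at 24 h and 2282 to 2376 CPM at 48 h, and its part in the results below was not tested. In RNA from whole cultures, fewer cells of a type and less RNA per cell cannot be told apart, and this holds for every value below. Whether the replicates came from separate cultures is not in the labels, and p-values thus measure the spread between these libraries, which may be technical.

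Between 24 h and 48 h, threonine dehydrogenase mRNA fell 4.4-fold, the largest change among the 31 genes. The glycine cleavage system was split, with Gldc higher and Amt lower at 48 h. Asns, Cbs and Aldh1l1 also fell, and Mat2a, Mthfd1l and Mthfd2 rose. Atf4 itself stood at 403.5 ± 7.07 and 405.8 ± 5.86 CPM and was not called changed. In all, 25 of the 31 genes passed an adjusted p of 0.05 in edgeR's quasi-likelihood test, 11 of them higher and 14 lower at 48 h. Among all 14889 genes tested, 62.8% were called, 30.9% as higher and 31.9% as lower. Most of the 31 genes are abundant, and abundant genes are called more often. Of the 29 genes of the set with a mean of at least 20 CPM, 25 were called, where 74.5% of all genes with such a mean were. For 26 of the 31 genes the 2 times did not overlap, where 66.9% of all tested genes did not. This share was not taken among abundant genes alone. The set was chosen with earlier results of these data known, so none of its shares is that of an independent draw. The median log2 fold change of the set was -0.07, against -0.01 for all tested genes, and the median size of the change, without its sign, was 0.23 against 0.26. Called changes of at least 2-fold were found for 2 of the 31, Tdh and Aldh1l1, both lower at 48 h. Of all tested genes 11.2% changed that much, 4.59% as higher and 6.63% as lower. Scaled by library size alone, 7 genes of the set were higher and 16 lower. By GENCODE M21, exons of 9 of the 31 overlap exons on the opposite strand (Tdh, Psph, Shmt1, Shmt2, Mthfd1, Aldh1l1, Aldh1l2, Mat2a and Ddit3). Genes named below from outside the set have such overlaps too, among them Gss, Slc6a9, Paics, Tk1, Gclm, Eif2ak2, Bhmt and Dmgdh. The sources used here do not give how strand was treated in counting, so reads of such partners may be included in all these genes.

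**Figure D1:**
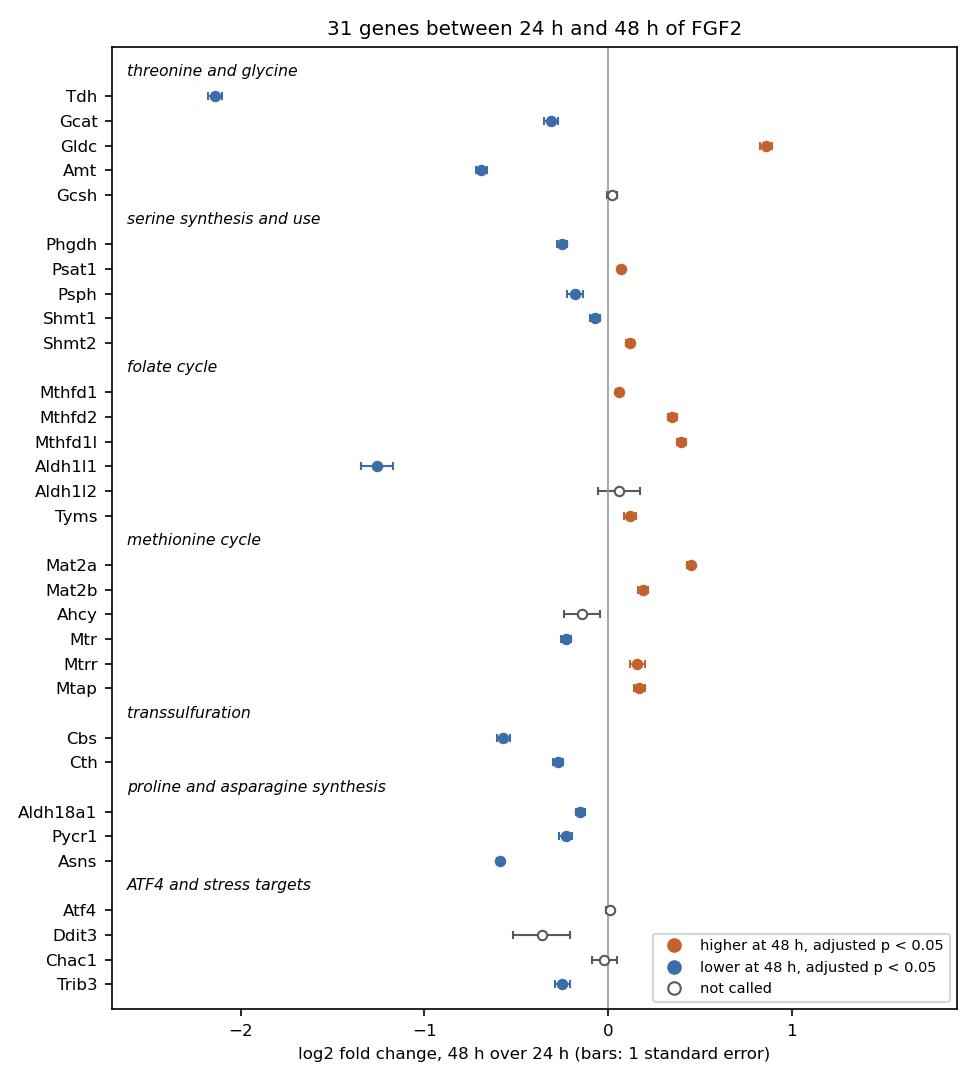
Log2 fold change (48 h over 24 h, horizontal axis) of the 31 genes, grouped by role, with bars of 1 standard error and 3 libraries at each time. Filled orange points rose and filled blue points fell at an adjusted p under 0.05, and open points were not called. Tdh at -2.14 and Aldh1l1 at -1.26 lie far to the left of the other genes, and Gldc at 0.86 lies farthest to the right.

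Both enzymes that turn threonine into glycine fell, Tdh far more than Gcat. Tdh (ENSMUSG00000021953, minus strand of chromosome 14, 63492347 to 63509092 in GRCm38), which encodes threonine dehydrogenase, was at 227.9, 234.5 and 241.9 CPM in the 24 h libraries and at 55.19, 49.18 and 55.66 CPM in the 48 h libraries. Every 24 h library lay more than 4 times above every 48 h library. This gave -2.14 ± 0.038 on the log2 scale (adjusted p = 5.72e-17). Some reads of Tdh were divided with the transcribed processed pseudogene Gm13929. Tdh held between 99.6% and 99.9% of the summed counts of both in each library. Gcat, which encodes the enzyme of the next step, was at 60.88, 66.45 and 65.9 CPM at 24 h and at 52.06, 52.38 and 51.42 CPM at 48 h. The groups did not overlap, but the fall was small beside that of Tdh (log2 fold change -0.31 ± 0.039; adjusted p = 3.06e-06).

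Of the 4 proteins of the glycine cleavage system, 1 had a higher mRNA level at 48 h, 1 a lower one, and 2 were not called. Gldc, which encodes the decarboxylase that starts the reaction, was at 51.96, 54.79 and 53.78 CPM at 24 h and at 98.13, 97.63 and 96.26 CPM at 48 h. It rose 1.82-fold (log2 fold change 0.86 ± 0.032, adjusted p = 6.32e-13). Amt, which encodes the aminomethyltransferase that passes the carbon to folate, was at 106.1, 111.4 and 110.8 CPM at 24 h and fell to 68.21, 68.88 and 66.94 CPM, with no overlap (log2 change -0.69 ± 0.031, adjusted p = 7.28e-12). Per kilobase of exon, Amt stood at 52.6 and Gldc at 14.2 CPM at 24 h, and at 32.7 and 25.8 CPM at 48 h. The distance between the levels of these subunits was thus smaller at 48 h. Gcsh, the lipoic acid carrier, overlapped between the times at 130.5 ± 2.85 and 132.3 ± 3.47 CPM (n = 3; log2 change 0.02 ± 0.028; adjusted p = 0.547). Dld, the dehydrogenase that this system shares with other mitochondrial complexes, missed the threshold narrowly (-0.07, adjusted p = 0.0506).

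**Figure D2:**
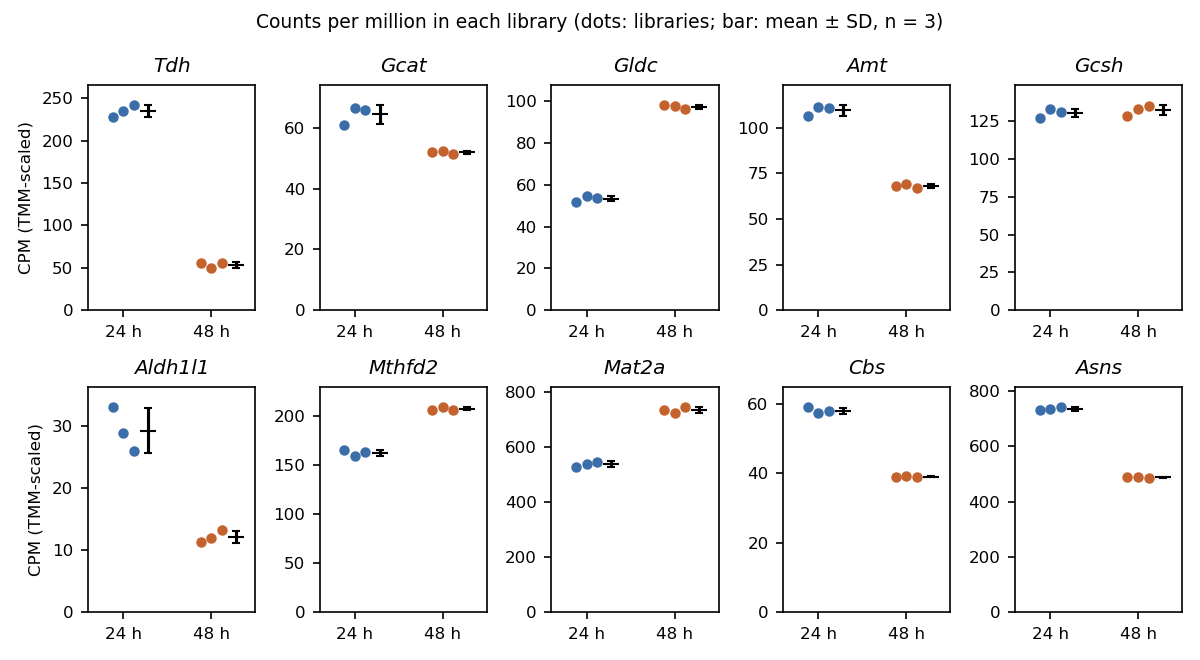
CPM in each library (vertical axis, TMM-scaled, starting at 0) for 10 of the genes at 24 h (blue) and 48 h (orange), with the mean ± SD of 3 libraries beside the points. The times are apart for Tdh, Gcat, Gldc, Amt, Aldh1l1, Mthfd2, Mat2a, Cbs and Asns, and they overlap for Gcsh.

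The 3 enzymes that make serine from a glycolytic intermediate changed little. Phgdh, the dehydrogenase of the first step, was at 169.7, 172.8 and 175.4 CPM at 24 h and at 140.4, 148.2 and 146.5 CPM at 48 h (log2 fold change -0.25 ± 0.026, adjusted p = 3.53e-07). Psat1, the aminotransferase of the next step, moved the other way, from 498.8 ± 3.95 to 524.8 ± 1.77 CPM (n = 3; log2 change 0.07 ± 0.016; adjusted p = 0.000982). Psph, the phosphatase that releases serine, fell from 37.8 ± 1.13 to 33.27 ± 1.06 CPM (log2 change -0.18, adjusted p = 0.00164). Psat1 lost its call under library size scaling alone (0.01, adjusted p = 0.514; over all alternatives the adjusted p ranged from 0.000307 to 0.514). The opposite-strand partner of Psph is Cct6a. Phgdh held between 98.7% and 99.2% of the summed counts of Phgdh and 10 similar loci.

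Serine hydroxymethyltransferase, which turns serine into glycine and loads a carbon on folate, has a cytosolic form (Shmt1) and a mitochondrial form (Shmt2). Shmt2 was at 267.7, 254.4 and 265.6 CPM at 24 h and at 285.7, 285.1 and 288.4 CPM at 48 h, a rise of 0.12 ± 0.022 on the log2 scale (adjusted p = 0.000105). Shmt1 stood at 136.6 ± 3.82 and 130.2 ± 2.06 CPM (log2 change -0.07 ± 0.028, adjusted p = 0.0362). Its call was not stable. It was lost with RLE scaling (adjusted p = 0.0577), with DESeq2 (0.15), and without replicate 2 (0.0524) or 3 (0.172) of 24 h or replicate 1 (0.0698) or 3 (0.128) of 48 h. Its adjusted p ranged from 0.000645 to 0.172 over the alternatives. The opposite-strand partners are Smcr8 for Shmt1 and Ndufa4l2 for Shmt2.

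Of 7 tested genes from a list of 9 others of glycine and serine handling, 2 rose, 1 fell and 4 were not called. Slc6a9, a glycine transporter, rose from 9.76 ± 0.588 to 13.91 ± 1.06 CPM (log2 change 0.51), and Sptlc2, a subunit of the enzyme that joins serine to palmitoyl-CoA, fell from 66.29 ± 1.41 to 47.97 ± 1.65 CPM (-0.47). The median of this list was -0.04.

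Of the 6 folate cycle genes, 4 rose, 1 fell and 1 was not called, and the largest rises were those of the mitochondrial enzymes Mthfd1l and Mthfd2. Mthfd2, a mitochondrial methylenetetrahydrofolate dehydrogenase, was at 165.3, 158.8 and 162.8 CPM at 24 h and at 206.2, 208.8 and 206.4 CPM at 48 h (log2 fold change 0.35 ± 0.023, adjusted p = 9.37e-10). Mthfd1l, the mitochondrial enzyme that releases formate, was at 164.2, 161.4 and 164.6 CPM and then at 215.6, 218.3 and 214.9 CPM (0.40 ± 0.022, adjusted p = 7.59e-11). For both genes all 48 h libraries lay above all 24 h libraries. Mthfd1, the cytosolic enzyme of 3 activities that takes up formate, changed from 351.3 ± 4 to 367.3 ± 3.56 CPM (n = 3; log2 change 0.06 ± 0.018; adjusted p = 0.00601). This call was lost under library size scaling alone (0.00, adjusted p = 0.854; the alternatives ranged from 0.00296 to 0.854).

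A ratio of counts within a library does not depend on the scaling between libraries. The estimated counts of Mthfd2 and Mthfd1l together were 0.937, 0.902 and 0.943 times those of Mthfd1 at 24 h and 1.16, 1.153 and 1.145 times at 48 h. The ratio of Shmt2 to Shmt1 was 2.007, 1.877 and 1.886 at 24 h and 2.189, 2.158 and 2.253 at 48 h. In both pairs the mitochondrial share was higher in every 48 h library than in any 24 h library.

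**Figure D3:**
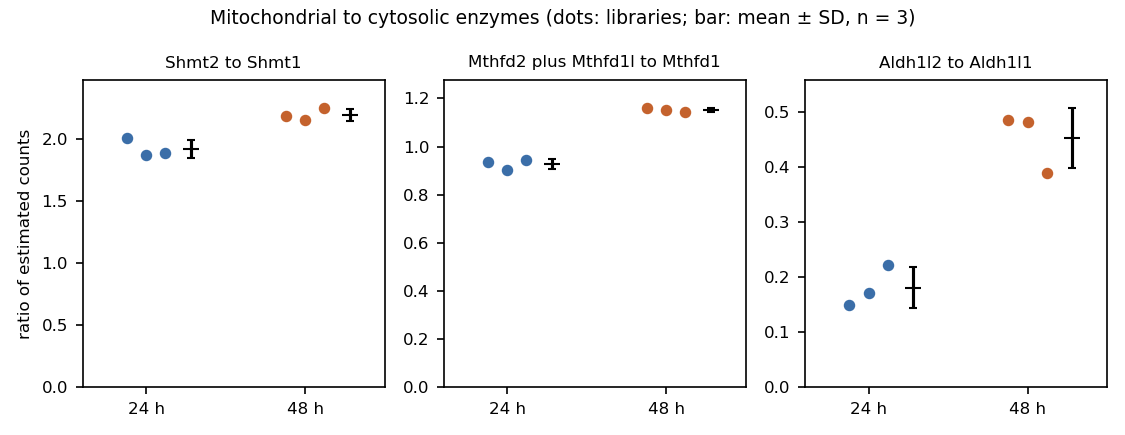
Ratio of the estimated counts of mitochondrial to cytosolic enzymes (vertical axis, starting at 0) in each library at 24 h (blue) and 48 h (orange), with the mean ± SD of 3 libraries. In each of the 3 panels all 48 h points lie above all 24 h points.

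The 2 forms of 10-formyltetrahydrofolate dehydrogenase, which burn off folate-bound carbon as carbon dioxide, were both measured, and the cytosolic one fell. Aldh1l1, the cytosolic form, was at 33.09, 28.91 and 26.02 CPM at 24 h and at 11.28, 12.02 and 13.22 CPM at 48 h. It fell 2.4-fold (log2 fold change -1.26 ± 0.087, adjusted p = 1.86e-09), the second largest change of the set, and the times did not overlap. Aldh1l2, the mitochondrial form, was low at both times, with 99 to 137 counts in a library. It stood at 5.231 ± 0.498 and 5.475 ± 0.331 CPM (SD, n = 3), and its log2 fold change of 0.06 ± 0.115 (adjusted p = 0.671) leaves room for small changes either way. The ratio of Aldh1l2 to Aldh1l1 was 0.181 ± 0.038 at 24 h and 0.453 ± 0.055 at 48 h. The opposite-strand partner of Aldh1l2 is D10Wsu102e, and that of Aldh1l1 is Gm15756. Tyms, thymidylate synthase, rose from 92.24 ± 2.4 to 100.2 ± 2.48 CPM (0.12 ± 0.031, adjusted p = 0.00286), a call that library size scaling alone removed (0.06, adjusted p = 0.103; the range was 0.00106 to 0.103).

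Genes that feed or use this cycle were read from lists. Of 12 other folate genes, 11 were tested, 5 rose and 3 fell, with a median of 0.05. Folr1, a folate receptor, rose from 23.3 ± 1.31 to 33.65 ± 0.044 CPM (log2 change 0.53), and Mthfs, which returns 5-formyltetrahydrofolate to the cycle, fell from 6.47 ± 0.36 to 4.17 ± 0.536 CPM (-0.64). Of 8 purine synthesis genes, 6 rose and 1 fell, with a median of 0.24. Prps2, which makes the sugar phosphate that purines are built on, rose from 89.25 ± 0.147 to 200.4 ± 2.78 CPM (1.17, adjusted p = 5.01e-16), while Paics fell from 541.2 ± 0.652 to 479.1 ± 5.5 CPM (-0.18). Of 6 thymidylate and deoxynucleotide genes, 5 rose, with Dctd at 0.42 the largest, and Tk1 fell (-0.32).

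The methionine cycle showed 4 genes higher and 1 lower among its 6. Mat2a, the catalytic subunit that makes S-adenosylmethionine, was at 525.5, 537.4 and 546.4 CPM at 24 h and at 734, 723.7 and 742.9 CPM at 48 h. It rose 1.37-fold (log2 fold change 0.45 ± 0.018, adjusted p = 1.63e-12) and stood at 158 CPM per kilobase of exon at 24 h and 216 at 48 h. Its regulatory subunit Mat2b rose from 101.4 ± 1.91 to 115.7 ± 1.49 CPM (0.19 ± 0.028, adjusted p = 1.58e-05). Methionine synthase (Mtr), which uses folate-bound carbon to remake methionine, fell from 121.4 ± 0.606 to 103.6 ± 2.63 CPM (-0.23 ± 0.028, adjusted p = 1.99e-06). Its reactivating partner Mtrr rose from 32.86 ± 1.18 to 36.74 ± 0.493 CPM (0.16 ± 0.043, adjusted p = 0.00388). The call of Mtrr was lost under library size scaling alone (0.10, adjusted p = 0.0507; range 0.00286 to 0.0507). Mtap, which recovers methionine from the by-product of polyamine synthesis, rose from 91.34 ± 2.52 to 102.4 ± 1.58 CPM (0.17 ± 0.03, adjusted p = 0.00015).

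The value of Ahcy depends on how reads were divided between genes. Ahcy (chromosome 2, 155059310 to 155074497) encodes adenosylhomocysteinase, which removes the by-product of methylation. It was at 28.74, 31.88 and 34.29 CPM at 24 h and at 31.76, 31.9 and 22.51 CPM at 48 h, so the times overlapped (log2 fold change -0.14 ± 0.099, adjusted p = 0.214). Its estimated counts were fractional in all 6 libraries. Gm4737 (chromosome 16, 46152985 to 46155077), annotated as a protein-coding gene, shares 1747 stretches of 75 bases with the transcripts of Ahcy, and it was given 7373 to 9132 estimated counts in a library, where Ahcy was given 499 to 809. The sum of Ahcy, Gm4737 and 2 minor copies was a whole number in every library, and Ahcy held between 6.2% and 8.64% of it. That sum was 418.1, 421.7 and 421.4 CPM at 24 h and 371.1, 369.3 and 363 CPM at 48 h. On the summed counts the fall was called (log2 fold change -0.19 ± 0.018, adjusted p = 7.02e-08), which makes 26 changed genes in the set. Which of these loci was transcribed cannot be told from these counts. Without replicate 3 of 48 h, the log2 fold change of Ahcy alone was 0.01 (adjusted p = 0.95; alternatives that kept the deposited count ranged from 0.0195 to 0.95).

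**Figure D4:**
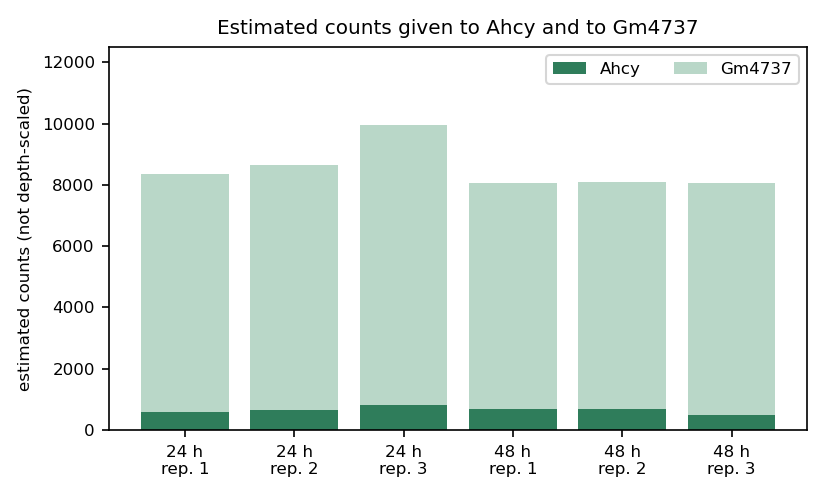
Estimated counts (vertical axis, not scaled for depth, starting at 0) given to Ahcy (dark) and to Gm4737 (light), stacked, in each of the 6 libraries. Ahcy holds under 9% of the stack in every library, and the smallest dark bar is replicate 3 of 48 h with 499 counts.

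Of 21 other genes of methionine, methyl groups and polyamines, 18 were tested, 9 rose and 6 fell, with a median of 0.13. Adk, adenosine kinase, which clears the adenosine that adenosylhomocysteinase releases, rose from 27.81 ± 1.28 to 75.49 ± 3.64 CPM (1.44, adjusted p = 1.02e-13). Apip, an enzyme of methionine salvage, fell from 15.65 ± 0.162 to 11.14 ± 0.0747 CPM (-0.49).

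Both transsulfuration genes, which lead homocysteine to cysteine, fell. Cbs, cystathionine beta-synthase, was at 58.97, 57.23 and 57.81 CPM at 24 h and at 38.85, 39.17 and 38.97 CPM at 48 h (log2 fold change -0.57 ± 0.037, adjusted p = 7.28e-10). Cth, the lyase of the next step, was at 165.5, 164.3 and 172.8 CPM and then at 136.7, 141.2 and 139.4 CPM (-0.27 ± 0.027, adjusted p = 1.69e-07). In neither gene did the times overlap. Of 7 other proline and glutathione genes, 4 rose and 3 fell, with a median of 0.23. Gclm, the modifier subunit of the first enzyme of glutathione synthesis, rose from 75.25 ± 3.45 to 117.9 ± 1.32 CPM (0.65), and Gss, the enzyme of the next step, fell from 31.16 ± 0.258 to 15.78 ± 0.696 CPM (-0.98).

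The 3 genes of proline and asparagine synthesis all fell. Asns, asparagine synthetase, was at 728.9, 733.4 and 740.5 CPM at 24 h and at 488.3, 489.6 and 483.8 CPM at 48 h, a log2 change of -0.59 ± 0.016 (adjusted p = 9.88e-15). At 340 CPM per kilobase it was the most abundant of the 31 genes at 24 h, and at 48 h, with 225, it stood below Atf4 at 235. Its share of the summed CPM of the set was between 14.3% and 14.4% at 24 h and between 9.86% and 9.94% at 48 h. Aldh18a1, which starts proline synthesis from glutamate, fell from 187.1 ± 1.62 to 168.9 ± 1.37 CPM (n = 3; log2 change -0.15 ± 0.022, adjusted p = 2.18e-05). Pycr1, the mitochondrial reductase that completes it, fell from 59.79 ± 0.882 to 50.86 ± 1.22 CPM (-0.23 ± 0.036, adjusted p = 2.75e-05).

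**Figure D5:**
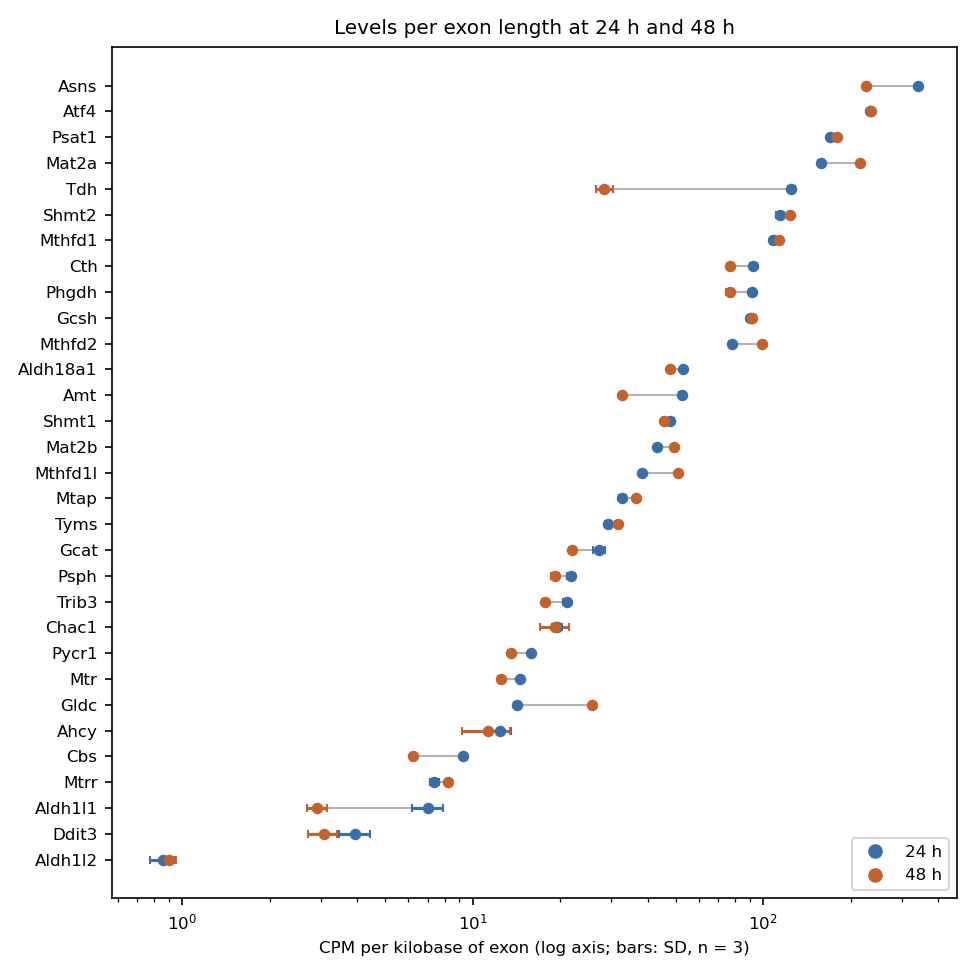
Mean CPM per kilobase of exon (horizontal log axis) of the 31 genes at 24 h (blue) and 48 h (orange), with bars of 1 SD (n = 3), ordered by the level at 24 h. The levels run from 0.859 for Aldh1l2 to 340 for Asns at 24 h, and Tdh moves from 125 to 28.4, the widest gap of any gene in the plot.

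ATF4 is the transcription factor that raises amino acid synthesis genes when its mRNA is translated under amino acid shortage or other stress, so its mRNA level alone does not give its activity. Atf4 was at 405.9, 395.6 and 409.1 CPM at 24 h and at 409.1, 409.2 and 399 CPM at 48 h, and the groups overlapped (log2 fold change 0.01 ± 0.019, adjusted p = 0.745). Under library size scaling alone it was -0.05 with an adjusted p of 0.0281, within a range from 0.0281 to 0.894. Trib3, a pseudokinase induced by ATF4, was at 42.35, 43.99 and 41.7 CPM and then at 36.45, 35.15 and 36.27 CPM (-0.25 ± 0.041, adjusted p = 6.34e-05). Chac1, which degrades glutathione, stood at 31.85 ± 1.34 and 31.42 ± 3.63 CPM (-0.02 ± 0.067, adjusted p = 0.831). Ddit3, which encodes the stress factor CHOP, was low, at 3.51 ± 0.43 and 2.736 ± 0.313 CPM, with 52 to 82 counts in a library. It missed the threshold (-0.36 ± 0.155, adjusted p = 0.0568) although its groups did not overlap. It passed under library size scaling alone (-0.42, adjusted p = 0.028; the range was 0.028 to 0.212). One opposite-strand partner of Ddit3 is Mars, at 234.1 and 229.9 CPM far more abundant.

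Other targets of ATF4 moved in both directions. Of 18 listed, 17 were tested, 8 rose and 5 fell, with a median of -0.01. Ddit4, an inhibitor of mTORC1, rose from 40.53 ± 3.88 to 69.8 ± 1.89 CPM (log2 change 0.78), and Gdf15, a secreted stress factor, fell from 8.19 ± 0.483 to 6.24 ± 0.609 CPM (-0.39). Of 12 aminoacyl-tRNA synthetase genes, 4 rose and 4 fell, with Wars (0.2) and Nars (-0.1) the largest called changes in each direction. Of 7 genes for the eIF2 kinases and related factors, which act upstream of ATF4, 5 fell and 1 rose, with Eif2ak2 at -0.64 and Eif2s1 at 0.17.

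The promoters of the set were searched for the letters TGATGNAA, the core of the element through which ATF4 acts with C/EBP partners, on both strands. RefSeq promoters of GRCm38.p6 (250 bases before and 50 from each start) were found for 28 of the 31 genes. The motif was in 4 of these 28, Asns, Chac1, Pycr1 and Trib3, and in 4.51% of the 27025 genes with a promoter in that table. The set was chosen in part for the ATF4 response, so its share is not independent of that choice. The sequences around the 3 matches that end before the RefSeq start are shown. Of their genes, Asns and Pycr1 were lower at 48 h and Chac1 was not called. The match of Trib3 begins 14 bases after the start. Capitals mark the motif or its reverse complement, and each sequence reads 5′ to 3′ on the strand of the gene, at chr6:7693214-7693243 (minus strand) for Asns, chr11:120643788-120643907 (minus strand) for Pycr1 and chr2:119350993-119351112 (plus strand) for Chac1.
Asns: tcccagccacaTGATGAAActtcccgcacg
Pycr1: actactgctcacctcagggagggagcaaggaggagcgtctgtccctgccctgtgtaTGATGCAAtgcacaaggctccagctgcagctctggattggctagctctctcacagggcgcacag
Chac1: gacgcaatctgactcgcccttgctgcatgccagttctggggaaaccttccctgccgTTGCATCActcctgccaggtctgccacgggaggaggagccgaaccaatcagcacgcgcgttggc

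Counted from the RefSeq start as base 0, the motif began at -23 in Asns, -103 in Pycr1 and -193 in Chac1. By GENCODE M21 the match of Asns lies inside the gene, whose span on the minus strand begins at 7693254. It lay on the strand of the gene in Asns and Pycr1 and on the opposite strand in Chac1. The letters alone do not show that a factor binds there.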

How the data were processed

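Messenger RNA libraries were made from total RNA with a KAPA mRNA HyperPrep kit, per the labels' protocols. The deposited table holds estimated counts per Ensembl gene from RSEM, not scaled for depth or length, 1 column per library. The submitters' processing notes name cutadapt 1.9.1, STAR 2.5.2, RSEM 1.3.0 and GRCm38; annotation, strand and filters are not given in the sources used here. RSEM divides reads between similar genes, so counts can be fractional (4 of the 31 genes). Some listed genes outside the set, among them Mthfs, also had fractional counts, and similar loci were not searched for them. No column was left without a sample.

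GENCODE M21 named 51633 identifiers and gave exon lengths (merged exons of basic coding transcripts) and overlaps. Counts were rounded, filtered by filterByExpr (minimum count 10), TMM-scaled and tested on the whole table with edgeR 4.0.16 in R 4.3.3 (quasi-likelihood, group as the only term, two-sided, Benjamini-Hochberg); called means adjusted p under 0.05. The standard error is the log2 fold change divided by the square root of F. The script was tested on simulated counts. The common biological coefficient of variation was 2.32%.

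Members and lists were chosen with earlier results of these data known. Every member was named, and from each other list the called gene with the largest rise and fall at a mean of at least 5 CPM; Dld was named after its value was seen. Alternatives were RLE scaling, library size only, 2 filters, DESeq2 1.42.0, limma voom (limma 3.58.1), unrounded counts, the replicate block and leaving out each library. Summing genes that share sequence was added after the data were seen.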

Additional observations from a re-analysis of the deposited data

How the results depend on the processing

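Of the values of the 31 genes under the alternatives, counted gene by gene and setting by setting, 444 were alike in sign and call, while 11 were no longer called, 3 were newly called with the same sign and 7 changed sign, of which 1 (Atf4 under library size scaling) was also newly called. The count of changed genes among all tested stayed within 1.5 times of 9345. Among the 31 genes, 23 to 26 were called, and with 1 library left out 24 or 25. With library size as the only scaling, 7 were higher. There 4 risers (Psat1, Mthfd1, Tyms and Mtrr) lost their call, and the log2 fold changes of Gcsh, Aldh1l2 and Atf4 turned to -0.04, -0.00 and -0.05. Atf4 (adjusted p = 0.0281) and Ddit3 (-0.42, adjusted p = 0.028) gained a call there. The median of the set went from -0.07 to -0.13 there, as that of all tested genes went from -0.01 to -0.07. Leaving out 1 library moved the set's median between -0.11 and 0.01 (above 0 without replicate 3 of 48 h), Ahcy between -0.22 and 0.01, Atf4 between -0.01 and 0.02 and Chac1 between -0.11 and 0.06. Without replicate 2 of 24 h Atf4 was at -0.01 and Chac1 at 0.01, and without replicate 3 of 48 h Ahcy was at 0.01 and Chac1 at 0.06, none called. With the replicate block 24 of the 31 genes and 9235 of all genes were called, and Shmt1 lost its call (adjusted p = 0.0533). Same-numbered libraries did not deviate together (correlations of their deviations of -0.046, -0.043 and -0.009), and the numbers were not read as pairs. With a filter of at least 1 count, Ahcy was called (-0.15, adjusted p = 0.0195). Depth limits Ddit3 and Aldh1l2, whose counts were lowest.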

Other observations

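Bhmt and Dmgdh, of the betaine branch that remakes methionine without folate, were low at 24 h and lower at 48 h. So was Bhmt2, a relative of Bhmt that is not counted here as part of that branch. These genes were chosen after their values were seen. Bhmt, betaine-homocysteine methyltransferase, had 57, 65 and 72 counts at 24 h and 4, 0 and 5.02 at 48 h (log2 fold change -4.41 ± 0.38, standard error; edgeR adjusted p = 3.48e-08). Its relative Bhmt2 had 25, 18 and 46 counts and then 2, 3 and 1 (-3.83 ± 0.5, adjusted p = 4.21e-06). Dmgdh, which oxidises the dimethylglycine that betaine leaves behind, had 128, 108 and 144 counts and then 14, 14 and 19 (-3.04 ± 0.18, adjusted p = 2.45e-10). With so few counts at 48 h, the sizes of the falls of Bhmt and Bhmt2 are uncertain. How far they depend on the prior count of the fit was not tested. The 3 genes lie next to each other on chromosome 13 of GRCm38, from 93616675 to 93752833. Of the coding genes beside them, Jmy was at 0.13 (adjusted p = 0.0458) and Arsb at -0.14 (adjusted p = 0.612). The next one past Jmy, Homer1, was at 0.3 (adjusted p = 5.54e-05), and the next one past Arsb, Lhfpl2, was at -1.02 (adjusted p = 0.00286). Arsb and Lhfpl2 were low, at 1.57 and 1.49 CPM at 24 h and at 1.41 and 0.731 CPM at 48 h.

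The 4 polyamine genes of the methionine list, also singled out after their values were seen, all rose. Odc1, the ornithine decarboxylase that starts the pathway, went from 607.9 ± 5.12 to 838.8 ± 5.27 CPM, a log2 change of 0.46. Amd1, which decarboxylates S-adenosylmethionine for this use, rose by 0.41, and the synthases Srm and Sms rose by 0.66 and 0.76. The estimated counts of Odc1, Amd1 and Sms were fractional in all 6 libraries. Sharing of reads with similar loci was not examined for them.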
